A study of Mus musculus with 4 samples.

Results

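The genes described here encode ligands, receptors and close associates of the TGF-beta and activin pathway. They were chosen by name as 10 symbols of the deposited expression table (Tgfb1, Tgfb2, Tgfb3, Tgfbr1, Tgfbr2, Tgfbi, Smad3, Inhba, Inhbb and Fst), and all 10 were found among its 24493 gene symbols. RNA sequencing had been done on 4 untreated cultures of mouse liver cells of C57BL/6 background. Hep_3D held cultured hepatocytes grown in 3D (n = 2), and Bil_2D held biliary cells that had been derived from hepatocytes and were grown in 2D (n = 2). Clone 15C7 is replicate 1 and clone 19H5 replicate 2 in both groups, so each clone gave 1 library per group. Cell state and culture format changed together in every library and cannot be told apart, and each library is 1 culture of 1 clone. Nothing in the labels says whether the clones came from separate animals, so p-values measure only how far these samples spread, in which technical variation may have a share.

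TGF-beta ligands are secreted as latent complexes, are released by integrins and proteases, and bind a type II receptor (Tgfbr2) that recruits and activates a type I receptor (Tgfbr1). The type I receptor phosphorylates Smad2 and Smad3, which enter the nucleus with Smad4 and change transcription. Activins, dimers of inhibin beta subunits, use their own receptors and the same Smads, and follistatin (Fst) binds and neutralizes them. In liver the TGF-beta branch is known for restraining hepatocyte growth, for matrix deposition by stellate cells and for biliary differentiation of liver progenitors.

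The table gives TPM, each transcript's share of its library corrected for length, so levels can be compared between genes but carry no depth, and the counting error behind each value was unknown. A fold change is the difference in log2(TPM + 1), Hep_3D minus Bil_2D, and the added 1 makes it too small for low genes. A gene entered the limma test when 2 or more libraries held 1 TPM or more of it (12336 genes), and a gene was called at a Benjamini-Hochberg adjusted p under 0.05 over all of them. Each library's 50 most abundant genes held 46.6% and 48.4% of its TPM in Hep_3D, against 22.4% and 24.8% in Bil_2D, and the genes tested had a median log2 fold change of -0.73. The TPM were therefore also divided by size factors (median-of-ratios), which brought that median to -0.02. Values on this size-factor scale show a gene relative to the common shift. On the TPM scale 51.9% of genes tested were called lower and 6.8% higher in Hep_3D, against 9.54% lower and 11.9% higher on the size-factor scale. With 2 libraries against 2, an exact permutation test of a single value cannot go below a two-sided p of 0.333.

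The cultures carried the markers of their labels in part. Of 8 hepatocyte markers 6 rose in Hep_3D (6.8% of all genes tested did) and 0 fell, with the same counts on the size-factor scale. Among the 6 were Cps1 and Tat, which passed the filter through the Hep_3D libraries alone. These 2 had to differ between the groups to be tested, so their calls are no support for a direction. Of 7 biliary markers tested 4 fell, beside 51.9% of all genes tested, and 1 rose, and on the size-factor scale 2 were called lower and 1 higher. The one that rose was Spp1, osteopontin, with 13093 and 9284 TPM in Hep_3D, against 4176 and 6092 TPM in Bil_2D. Krt19, the keratin of bile ducts, was at 1.12 and 15.9 TPM in Hep_3D, against 752 and 1615 TPM in Bil_2D. The biliary marker Epcam was at 1.35 and 0.439 TPM in Hep_3D and 2.59 and 0.817 TPM in Bil_2D. The duct chloride channel Cftr was listed at 0 in both Hep_3D libraries, with 0.0797 and 0.0244 TPM in Bil_2D. The summed level of 7 endothelial markers was 0.0937 and 0.084 TPM in Hep_3D and 0.409 and 0.208 TPM in Bil_2D. The 6 macrophage markers summed to 2.7 and 3.1 TPM in Hep_3D and 7.21 and 13.5 TPM in Bil_2D, with Clec4f listed at 0 in all but Bil_2D replicate 1. Most of the Bil_2D sum was Cd68, at 4.5 and 11.7 TPM there, against 0.674 and 1.74 TPM in Hep_3D. Cd68 was called lower in Hep_3D on the TPM scale (log2 fold change -1.96, adjusted p = 0.0322 in limma). It was not called on the size-factor scale (adjusted p = 0.141). The 10 fibroblast and stellate markers summed to 180.3 and 3.65 TPM in Hep_3D and 4.88 and 1.24 TPM in Bil_2D. Dcn, a matrix proteoglycan that binds TGF-beta, made up 178 TPM of the sum in Hep_3D replicate 1. The other 9 of these markers summed to at most 2.5 TPM in any library.

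The 3 TGF-beta ligands had similar mean levels in Bil_2D, and in Hep_3D Tgfb1 was the most abundant of them. Of the 10 genes 9 passed the filter and were tested, and 5 of these fell and 0 rose on the TPM scale, beside the background of 51.9% lower, and Tgfb2, Tgfb3 and Smad3 were also called lower on the size-factor scale, beside 9.54%. Hep_3D lay under Bil_2D without overlap for 7 of the 9 on the TPM scale, beside 71.9% of all genes tested, and for 4 on the size-factor scale, beside 34.7%. Tgfb3, counted in these calls, passed the filter on low values through the Bil_2D libraries alone. It had to differ between the groups to be tested, so its call is no support for a direction. It had 0.306 and 0.38 TPM in Hep_3D, against 20.9 and 31.4 TPM in Bil_2D. Both Hep_3D libraries lay far under both Bil_2D libraries. Tgfb3 (chromosome 12, 86056743 to 86079041), a ligand known for its role in palate fusion, fell by 4.31 on the log2 scale (SE 0.26, adjusted p = 0.00358 in limma), with -3.80 on the size-factor scale (adjusted p = 0.00552). On that scale the adjusted p was 0.0548 without Bil_2D replicate 2.

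Tgfb2 (chromosome 1, 186622787 to 186709697), a ligand with a wide role in development, had 1.14 and 0.719 TPM in Hep_3D, against 33.1 and 15.9 TPM in Bil_2D. The groups did not overlap, and in both groups clone 15C7 was the higher. Tgfb2 fell by 3.65 on the log2 scale (SE 0.40, adjusted p = 0.00608 in limma), with -3.05 on the size-factor scale (adjusted p = 0.0154). On the TPM scale the call held as each library was left out, with adjusted p of 0.0342 to 0.0389. The size-factor call was lost as each library was left out (adjusted p of 0.0673 without Hep_3D replicate 1, 0.0826 without Hep_3D replicate 2, 0.0744 without Bil_2D replicate 1 and 0.0593 without Bil_2D replicate 2).

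Tgfb1 (chromosome 7, 25687002 to 25705077), the ligand most studied in liver fibrosis, had 14.6 and 7.37 TPM in Hep_3D, against 28.4 and 24.2 TPM in Bil_2D. It fell by 1.25 on the TPM scale (SE 0.35, adjusted p = 0.0371 in limma), closer to the common shift of -0.73 than Tgfb2 or Tgfb3. Its size-factor values were 19 and 9.96 in Hep_3D and 20.8 and 18.7 in Bil_2D, so the groups overlapped, and the fold change was -0.49 (adjusted p = 0.344). The call on the TPM scale was also lost without Hep_3D replicate 2 (adjusted p = 0.0692), Bil_2D replicate 1 (0.153) and Bil_2D replicate 2 (0.11).

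**Figure D1:**
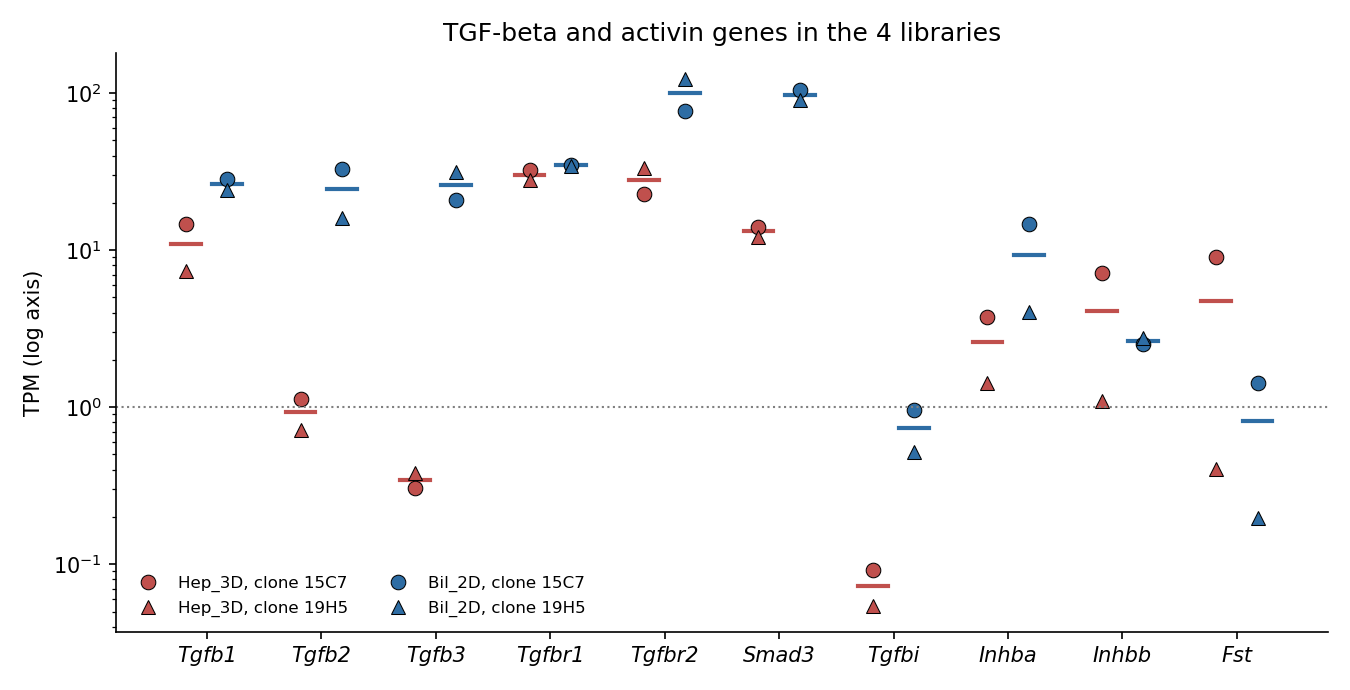
Level of each gene in TPM (log axis) in the 2 Hep_3D libraries (red, left) and the 2 Bil_2D libraries (blue, right), with circles for clone 15C7, triangles for clone 19H5 and a bar at each group's mean; the dotted line marks 1 TPM. Tgfb2, Tgfb3 and Smad3 show well separated groups, Tgfbr1 lies at 28 to 34.9 TPM in all 4 libraries, and the groups overlap for Inhbb and Fst.

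Shares within a library do not depend on the scaling between libraries. Tgfb1 made up 91% and 87% of the summed TPM of the 3 ligands in Hep_3D, against 34.5% and 33.8% in Bil_2D. Both groups were narrow and far apart for this share. Tgfb3 made up 1.91% and 4.48% in Hep_3D, against 25.3% and 43.9% in Bil_2D. Tgfb2 made up 7.09% and 8.49% in Hep_3D, against 40.2% and 22.3% in Bil_2D. In Bil_2D the clones thus differed in which of Tgfb2 and Tgfb3 was the more abundant, while the sum of the 3 ligands was 82.4 and 71.5 TPM there and 16 and 8.47 TPM in Hep_3D. In bulk samples, fewer cells with a transcript and less of it per cell cannot be told apart.

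**Figure D2:**
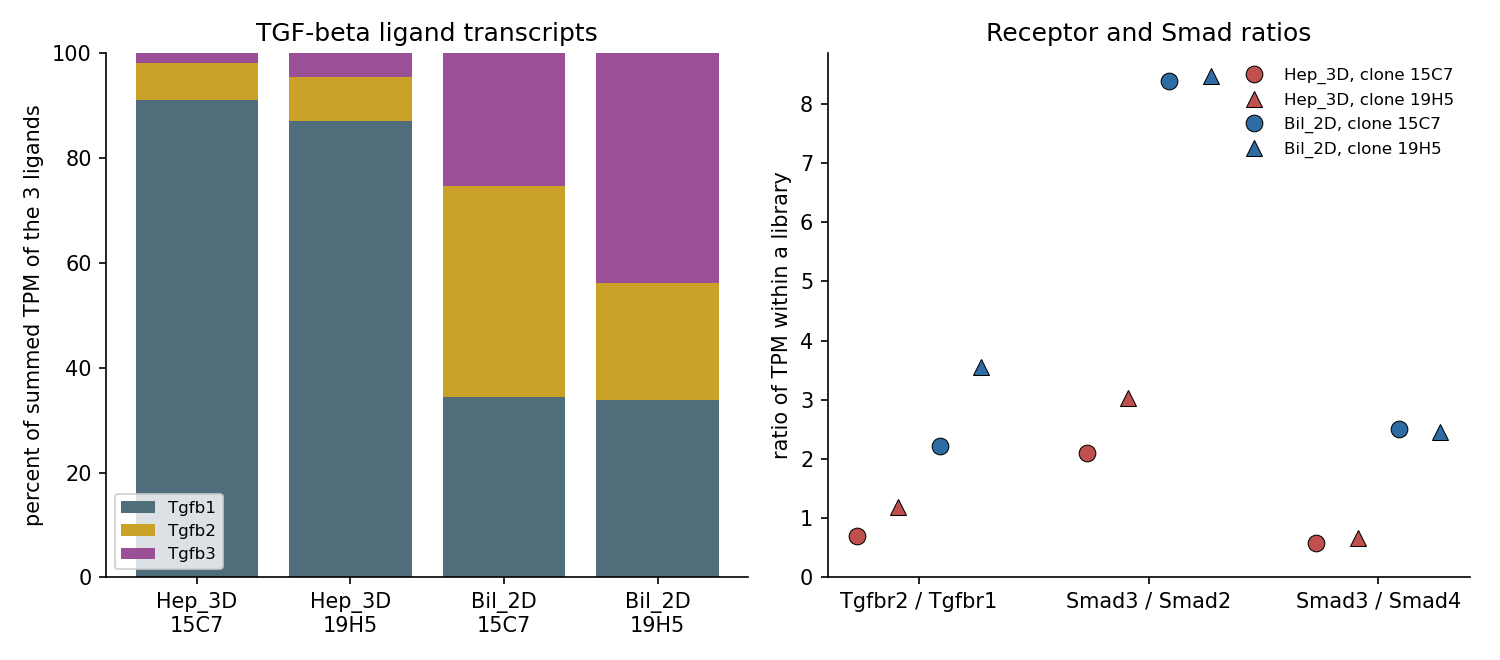
Left, percent of the summed TPM of Tgfb1, Tgfb2 and Tgfb3 held by each ligand in each library. Right, ratios of TPM within a library for Tgfbr2 over Tgfbr1, Smad3 over Smad2 and Smad3 over Smad4 (Hep_3D red, Bil_2D blue; circles clone 15C7, triangles clone 19H5); every Hep_3D value lies under both Bil_2D values of its ratio.

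The receptors did not move together. Tgfbr2 (chromosome 9, 116087695 to 116175363), the type II receptor that binds the ligand first, had 22.9 and 33.3 TPM in Hep_3D, against 77.4 and 123 TPM in Bil_2D. The groups did not overlap, and clone 19H5 was the higher in both. Tgfbr2 fell by 1.78 on the log2 scale (SE 0.31, adjusted p = 0.0121 in limma). The call was lost without Hep_3D replicate 1 (adjusted p = 0.0567) and without Bil_2D replicate 2 (0.0554). Its size-factor fold change was -0.98 (adjusted p = 0.112), and with clone as a replicate block there it was called (adjusted p = 0.0236).

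Tgfbr1 (chromosome 4, 47353222 to 47414926), the type I receptor kinase, had 32.5 and 28 TPM in Hep_3D, against 34.9 and 34.5 TPM in Bil_2D. Its log2 fold change was -0.19 (SE 0.14, adjusted p = 0.295 in limma) on the TPM scale. The direction turned on the size-factor scale, to 0.60 (SE 0.14, adjusted p = 0.0486), or 42.4 and 37.9 in Hep_3D against 25.6 and 26.7 in Bil_2D. That call was lost with the replicate block (adjusted p = 0.0526) and as each library was left out, with adjusted p of 0.148 without Hep_3D replicate 1, 0.111 without Hep_3D replicate 2, 0.202 without Bil_2D replicate 1 and 0.199 without Bil_2D replicate 2. Within a library, Tgfbr2 over Tgfbr1 was 0.705 and 1.19 in Hep_3D, against 2.22 and 3.55 in Bil_2D. The type II receptor transcript thus stood near the level of the type I transcript in Hep_3D and above it in both Bil_2D libraries.

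Smad3, the receptor-activated transcription factor of the pathway, had the smallest standard error among the 5 genes that fell. Smad3 (chromosome 9, 63646766 to 63757994) had 14.1 and 12.2 TPM in Hep_3D, against 105 and 90.2 TPM in Bil_2D. The Hep_3D mean was 0.135 times the Bil_2D mean, and the log2 difference within clones was -2.81 in 15C7 and -2.79 in 19H5. Smad3 fell by 2.80 on the log2 scale (SE 0.16, adjusted p = 0.00348 in limma), with -2.01 on the size-factor scale (adjusted p = 0.00501). The TPM-scale call held as each library was left out, with adjusted p of 0.0291 to 0.0367. The size-factor call was lost at 0.0616 without the first Bil_2D library and at 0.0641 without the second.

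The other Smads of the branch stood nearer the common shift. Smad2, the second receptor-activated Smad, had 6.73 and 4.03 TPM in Hep_3D, against 12.6 and 10.7 TPM in Bil_2D. Smad4, the shared partner, had 24.7 and 18.4 TPM in Hep_3D, against 42.1 and 36.7 TPM in Bil_2D. Both were called lower on the TPM scale (log2 fold changes -1.01 and -0.85, adjusted p = 0.0365 and 0.0244 in limma), and both calls were lost without Hep_3D replicate 2 (adjusted p = 0.105 and 0.0813), Bil_2D replicate 1 (0.156 and 0.119) and Bil_2D replicate 2 (0.106 and 0.0794). Neither passed on the size-factor scale (log2 fold changes -0.29 and -0.06, adjusted p = 0.468 and 0.829). The ratio of Smad3 to Smad2 was 2.1 and 3.03 in Hep_3D, against 8.39 and 8.47 in Bil_2D. The ratio of Smad3 to Smad4 was 0.573 and 0.663 in Hep_3D, against 2.5 and 2.46 in Bil_2D. The groups did not overlap for either ratio, which needs no scaling between libraries.

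**Figure D3:**
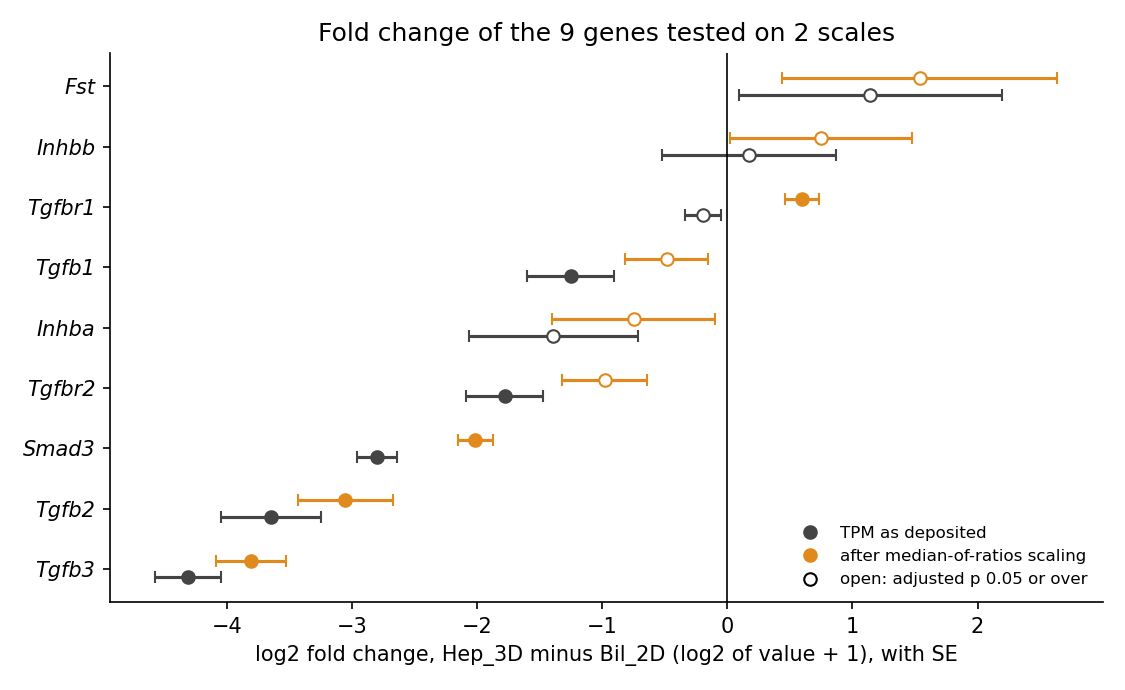
Log2 fold change, Hep_3D minus Bil_2D, with its SE for the 9 genes tested, on the TPM scale (grey) and after median-of-ratios (size-factor) scaling (orange); filled points had a limma adjusted p under 0.05. Tgfb2, Tgfb3 and Smad3 are filled on both scales, and Tgfbr1 lies at -0.19 on the TPM scale and 0.60 on the other.

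Upstream sequences are shown for Smad3, Tgfbr2 and Tgfbr1, because the first pair fell on the TPM scale while Tgfbr1 was not called there. The RefSeq promoter table used here (GRCm38.p6) was matched for 8 of the 10 genes, and those of Tgfb3 and Fst are not shown. For Tgfbr1, which has another RefSeq start within the gene, the upstream one is shown. Each sequence is the 250 bases before the RefSeq start, 5′ to 3′ on the gene's strand, and none of the 3 overlaps an exon of the GENCODE annotation of that build. They lie at chr9:63757995-63758244 (minus strand), chr9:116175364-116175613 (minus strand) and chr4:47352972-47353221 (plus strand). Capitals mark matches, on either strand, to CAGAC (the core bound by Smad proteins), TGANTCA (AP-1), GGAATG (TEAD factors) and GGGCGG (the GC box).
Smad3: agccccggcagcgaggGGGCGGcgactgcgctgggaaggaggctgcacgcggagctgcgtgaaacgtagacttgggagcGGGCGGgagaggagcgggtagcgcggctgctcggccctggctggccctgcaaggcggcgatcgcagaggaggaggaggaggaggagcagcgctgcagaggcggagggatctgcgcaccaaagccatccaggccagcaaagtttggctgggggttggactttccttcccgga
Tgfbr2: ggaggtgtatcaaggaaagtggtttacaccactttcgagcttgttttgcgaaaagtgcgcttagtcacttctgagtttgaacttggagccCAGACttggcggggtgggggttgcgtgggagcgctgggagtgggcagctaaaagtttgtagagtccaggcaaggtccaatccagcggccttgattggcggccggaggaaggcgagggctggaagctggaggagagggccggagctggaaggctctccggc
Tgfbr1: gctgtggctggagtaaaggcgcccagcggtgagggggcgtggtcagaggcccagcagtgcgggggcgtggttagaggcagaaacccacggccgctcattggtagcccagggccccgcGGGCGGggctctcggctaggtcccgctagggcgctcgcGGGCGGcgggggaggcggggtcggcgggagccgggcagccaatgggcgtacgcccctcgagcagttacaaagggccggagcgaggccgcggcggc
Smad3 and Tgfbr1 each held 2 GC boxes, and Tgfbr2 held 0; 1 or more is found in 32.7% of 32851 RefSeq promoter windows of this length. Tgfbr2 held 1 match to CAGAC, found in 42.2% of windows, and Smad3 and Tgfbr1 held 0. None of the 3 windows held TGANTCA or GGAATG, which are in 6.75% and 12.6% of windows. The GC content was 69.2% for Smad3, 58.4% for Tgfbr2 and 74.8% for Tgfbr1, against a median of 52.4% over all windows. These letters describe the windows and say nothing of which factor binds there.

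Tgfbi, a secreted matrix protein named for its induction by TGF-beta, was under 1 TPM in every library and was not tested. It had 0.0914 and 0.0545 TPM in Hep_3D, against 0.965 and 0.518 TPM in Bil_2D. It was the least abundant of the 10 genes in Hep_3D.

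Of the activin subunits and follistatin, none of the 3 passed the test without clone as a block (unadjusted p of 0.105 for Inhba, 0.814 for Inhbb and 0.334 for Fst in limma). Inhba (chromosome 13, 16004256 to 16031609), the beta A subunit that forms activin A, had 3.76 and 1.42 TPM in Hep_3D, against 14.7 and 4.03 TPM in Bil_2D. Clone 15C7 was the higher in both groups, and the groups did not overlap. The log2 fold change was -1.39 (SE 0.68, adjusted p = 0.141 in limma), and with clone as a replicate block it was called (adjusted p = 0.019). The log2 difference within clones was -1.73 in 15C7 and -1.05 in 19H5. On the size-factor scale the groups overlapped and Inhba was not called, with a fold change of -0.75 (adjusted p = 0.451, or 0.0895 with the block).

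Inhbb (chromosome 1, 119415463 to 119422248), the beta B subunit, had 7.11 and 1.09 TPM in Hep_3D, against 2.53 and 2.77 TPM in Bil_2D. The Hep_3D libraries lay on either side of both Bil_2D libraries, and the clones moved in opposite directions. The log2 fold change was 0.17 (SE 0.70, adjusted p = 0.844 in limma), -0.80 without Hep_3D replicate 1 (adjusted p = 0.0843) and 1.15 without Hep_3D replicate 2 (adjusted p = 0.0492). Hep_3D replicate 1 thus decided its direction.

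Fst (chromosome 13, 114452262 to 114458989) had 9.07 and 0.405 TPM in Hep_3D, against 1.43 and 0.198 TPM in Bil_2D. Clone 15C7 was the higher in both groups, and Fst passed the filter through that clone alone. The log2 fold change was 1.14 (SE 1.05, adjusted p = 0.388 in limma), and -0.28 without Hep_3D replicate 1 (adjusted p = 0.696). Fst over Inhba was 2.42 and 0.285 in Hep_3D, against 0.0967 and 0.0493 in Bil_2D. The ratio was higher in Hep_3D in both clones. The same library, Hep_3D replicate 1, held the highest levels of Fst, Inhbb and Dcn, and whether other cells in it had a part in these values was not tested.

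The order of the levels also differed between the groups. In Hep_3D, Tgfbr1 and Tgfbr2 led with overlapping ranges, followed by Smad3, Tgfb1, Fst, Inhbb and Inhba, each with a range that overlapped the next. Tgfb2, Tgfb3 and Tgfbi came last, without overlap between neighbours. In Bil_2D, Tgfbr2 and Smad3 led with overlapping ranges, and Tgfbr1 followed. Tgfb1, Tgfb3 and Tgfb2 came next, with overlapping ranges between neighbours, then Inhba and Inhbb, and last Fst and Tgfbi, whose ranges overlapped.

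Other genes of the pathway were taken from 6 lists by role, in which 71 of 98 genes in the table were tested. The lists were chosen with earlier results of these data known, so an excess over all genes tested is no support for a direction. On the TPM scale 36 fell and 5 rose in Hep_3D, with a median log2 fold change of -0.90 beside -0.73 for all genes tested. The size-factor scale gave 13 lower and 8 higher, with a median of -0.21 beside -0.02. Calls in either direction were 41 on the TPM scale (58.7% of all genes tested were called) and 21 on the size-factor scale (21.4%). The 41 became 35 without Hep_3D replicate 1, 25 without Hep_3D replicate 2, 19 without Bil_2D replicate 1 and 22 without its replicate 2. Of the 71 genes, 2 passed the filter on low values through the Hep_3D libraries alone and 5 through the Bil_2D libraries alone. Such a gene had to differ between the groups to be tested, so its call is no support for a direction. On the size-factor scale 14 of the pathway genes named in the next paragraphs were called, each of the 14 calls was lost without at least 1 of the 4 libraries, and 8 were lost as each library was left out (Gdf15, Lefty1, Thbs1, Plau, Smad6, Smad7, Furin and Chrd).

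Among 5 other ligands tested, 2 rose and 3 fell on the TPM scale, beside 6.8% and 51.9% of all genes tested. On the size-factor scale 2 were called higher and 2 lower, beside 11.9% and 9.54%. The 2 that rose, Inhbc and Inhbe, passed the filter through the Hep_3D libraries alone. Inhbc, an activin subunit made mainly by hepatocytes, had 7.35 and 3.65 TPM in Hep_3D, against 0.0938 and 0.0857 TPM in Bil_2D. It rose with a log2 fold change of 2.52 (adjusted p = 0.0083 in limma, and 0.051 and 0.0513 without Bil_2D replicates 1 and 2). Inhbe, the other hepatocyte subunit, had 2.76 and 4.66 TPM in Hep_3D, against 0.124 and 0 TPM in Bil_2D, and rose with a log2 fold change of 2.12 (adjusted p = 0.00826, and 0.0509 without Bil_2D replicate 2). Inhbc and Inhbe made up 48.2% and 76.8% of the summed TPM of the 4 activin subunits in Hep_3D, against 1.24% and 1.25% in Bil_2D. This share needs no scaling between libraries, and the groups did not overlap. Gdf15, a stress-induced distant member of the family, had 18.4 and 24.8 TPM in Hep_3D, against 239 and 123 TPM in Bil_2D, and fell by 2.95 (adjusted p = 0.0073). Lefty1, an inhibitor of Nodal signalling, fell by 2.49 (adjusted p = 0.00831, and 0.0522 without Bil_2D replicate 2).

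Of 6 other receptors and co-receptors tested, 1 fell and 0 rose, beside 51.9% lower and 6.8% higher over all genes tested. On the size-factor scale limma called 0, beside 9.54% lower and 11.9% higher. With an unadjusted p under 0.05 the counts were 2 lower and 0 higher on the TPM scale, and 0 lower and 2 higher on the size-factor scale. No unadjusted share of all genes was set beside these counts, so they do not set the receptors apart. Acvr1, a type I receptor for activins and bone morphogenetic proteins, had 5.31 and 7.18 TPM in Hep_3D, against 14.3 and 15.6 TPM in Bil_2D. It fell by 1.15 (adjusted p = 0.013 in limma, and 0.0661 and 0.0758 without Bil_2D replicates 1 and 2), and did not pass on the size-factor scale (-0.41, adjusted p = 0.25). Acvr1b, the type I receptor used by activins, had 21.4 and 14.6 TPM in Hep_3D, against 26.1 and 13.4 TPM in Bil_2D. Acvr2a, a type II activin receptor, had 5.56 and 6.5 TPM in Hep_3D, against 6.34 and 5.79 TPM in Bil_2D. For these activin receptors, named after their values were seen, the groups overlapped on the TPM scale (log2 fold changes -0.078 and -0.0097, adjusted p = 0.874 and 0.968). On the size-factor scale their direction turned and both Hep_3D libraries lay above both Bil_2D libraries. Acvr1b stood there at 0.70 (adjusted p = 0.226) and Acvr2a at 0.69 (adjusted p = 0.0687, unadjusted p = 0.0185), and neither was called. The co-receptors Tgfbr3 and Eng were under 1 TPM in every library.

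Of 14 genes tested that hold TGF-beta latent or release it, 10 fell and 1 rose, beside 51.9% and 6.8% of all genes tested. The median log2 fold change was -1.68, beside -0.73 over all genes tested. On the size-factor scale 5 were called lower and 1 higher (median -0.89), beside 9.54% and 11.9% of all genes tested. Of the 14, Itgb6 and Plau, both among these 5, passed the filter through the Bil_2D libraries alone. This list too was chosen with earlier results of these data known, so its counts are no support for a direction. Thbs1, thrombospondin, an activator of latent TGF-beta, had 2.8 and 0.66 TPM in Hep_3D, against 46.4 and 20.1 TPM in Bil_2D. It fell by 3.65 (adjusted p = 0.0107 in limma, and 0.0538 without Bil_2D replicate 1). Itgb6, the beta subunit of an epithelial integrin that releases TGF-beta, had 0.0651 and 0 TPM in Hep_3D, against 5.22 and 21.4 TPM in Bil_2D. It fell by 3.52 (adjusted p = 0.0144, and 0.0676 and 0.0756 without Hep_3D replicates 1 and 2). Plau, the urokinase protease, had 0.0707 and 0.0634 TPM in Hep_3D, against 3.44 and 6.28 TPM in Bil_2D, and fell by 2.41 (adjusted p = 0.00761). The integrin subunit Itgb3 fell by 2.75 (adjusted p = 0.0228), and the call was lost without Hep_3D replicate 1 (0.0536), Hep_3D replicate 2 (0.102) and Bil_2D replicate 1 (0.0781), and on the size-factor scale (0.0774). Itgav and Itgb1 were also called lower on the TPM scale, but not every integrin subunit of the list fell. Itgb5, named after its values were seen, had 40.8 and 26.8 TPM in Hep_3D, against 25.1 and 8.63 TPM in Bil_2D. It was not called (log2 fold change 1.10, adjusted p = 0.146 in limma). Itgb8, not tested, had 3.09 and 0.325 TPM in Hep_3D, against 0.312 and 0.026 TPM in Bil_2D. The gene called higher was Furin, the protease that cleaves TGF-beta precursors, named after its values were seen. Furin had 146 and 151 TPM in Hep_3D, against 116 and 94.2 TPM in Bil_2D (log2 fold change 0.50, adjusted p = 0.0479). Its call was lost as each library was left out, at adjusted p of 0.129 and 0.157 for the Hep_3D libraries and 0.0679 and 0.168 for the Bil_2D libraries. Its size-factor fold change was 1.31 (adjusted p = 0.012), with adjusted p of 0.057 to 0.0928 as each library was left out.

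Of 14 other Smads and nuclear partners 8 fell and 0 rose on the TPM scale, a share near the 51.9% lower over all genes tested. An unadjusted p under 0.05 gave 10 lower and 0 higher there, and 3 lower and 0 higher on the size-factor scale. No unadjusted share of all genes was set beside these counts, so they do not set the list apart. On the size-factor scale 2 were called lower and 0 higher, beside 9.54% and 11.9% of all genes tested. The 2 called lower were the inhibitory Smads. Smad7, which blocks the type I receptor and is itself induced by TGF-beta, had 2.67 and 1.86 TPM in Hep_3D, against 45.2 and 22.4 TPM in Bil_2D. It fell by 3.34 (adjusted p = 0.00654 in limma), with -2.65 on the size-factor scale (adjusted p = 0.0182, and 0.0655 to 0.0936 as each library was left out). Smad6, the inhibitory Smad of the bone morphogenetic protein branch, had 1.63 and 1.53 TPM in Hep_3D, against 37.2 and 13.9 TPM in Bil_2D. It fell by 3.21 (adjusted p = 0.0096), and the call was lost without Hep_3D replicate 1 (0.0511) or replicate 2 (0.0551). Its size-factor call (adjusted p = 0.0316) gave 0.0548 to 0.129 as each library was left out. The corepressor Tgif1 fell by 1.41 (adjusted p = 0.00574) and the Smad4 ubiquitin ligase Trim33 by 1.05 (adjusted p = 0.0103), and neither passed on the size-factor scale (adjusted p = 0.0629 and 0.224). The call of Trim33 on the TPM scale was lost without Hep_3D replicate 2 (0.0523), Bil_2D replicate 1 (0.0637) and Bil_2D replicate 2 (0.0642).

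The inhibitors share Smad6, Smad7, Ski, Skil, Tgif1 and Tgif2 with the list above. Among 20 inhibitors tested 8 fell, Smad6, Smad7 and Tgif1 among them, and 1 rose, beside 51.9% and 6.8% of all genes tested. On the size-factor scale 4 were called lower and 4 higher, beside 9.54% and 11.9% of all genes tested. Of the 4 called higher there, only Chrd, described below, was also called higher on the TPM scale. Htra1, a secreted protease that cleaves TGF-beta family proteins, had 1.82 and 1 TPM in Hep_3D, against 26.3 and 32.2 TPM in Bil_2D. It fell by 3.66 (adjusted p = 0.00427 in limma), with -3.03 on the size-factor scale (adjusted p = 0.00818). Fstl1, a follistatin-like secreted protein, had 0.593 and 0.295 TPM in Hep_3D, against 25.1 and 4.16 TPM in Bil_2D, and so passed the filter through the Bil_2D libraries alone. It fell by 3.01 (adjusted p = 0.0365, and 0.12 and 0.147 without Hep_3D replicates 1 and 2), and its fold change was -2.52 on the size-factor scale (adjusted p = 0.0918). The gene that rose, named after its values were seen, was the bone morphogenetic protein antagonist Chrd, with a log2 fold change of 1.67 (adjusted p = 0.0447). The call of Chrd was lost as each library was left out, at adjusted p of 0.0644 and 0.165 for the Hep_3D libraries and 0.0627 and 0.151 for the Bil_2D libraries.

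Of 24 widely used TGF-beta response genes 13 fell, a share near the 51.9% of all genes tested, and 1 rose, beside 6.8%. The median log2 fold change was -1.18, beside -0.73 for all genes. On the size-factor scale 5 were called lower and 1 higher, beside 9.54% and 11.9% of all genes tested (median -0.39, beside -0.02). Many of the response genes also answer to other signals, so the counts describe the genes and not the pathway's activity. Ctgf, a matricellular protein, had 56.7 and 13.3 TPM in Hep_3D, against 353 and 260.2 TPM in Bil_2D. It fell by 3.40 (adjusted p = 0.0187 in limma, and 0.0923 and 0.0734 without Bil_2D replicates 1 and 2), and on the size-factor scale its adjusted p was 0.0676. Cyr61, a related matricellular protein, fell by 5.17 (adjusted p = 0.00555). Smad7, Thbs1 and Itgb6, described above, stand in this list too and are among the 5 called lower on the size-factor scale. Of these, Itgb6 passed the filter through the Bil_2D libraries alone. The gene that rose was the protease inhibitor Timp1, named after its values were seen. Timp1 had 287 and 102 TPM in Hep_3D, against 43 and 44.3 TPM in Bil_2D (log2 fold change 1.95, adjusted p = 0.0338, and 0.128 and 0.118 without Bil_2D replicates 1 and 2).

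**Figure D4:**
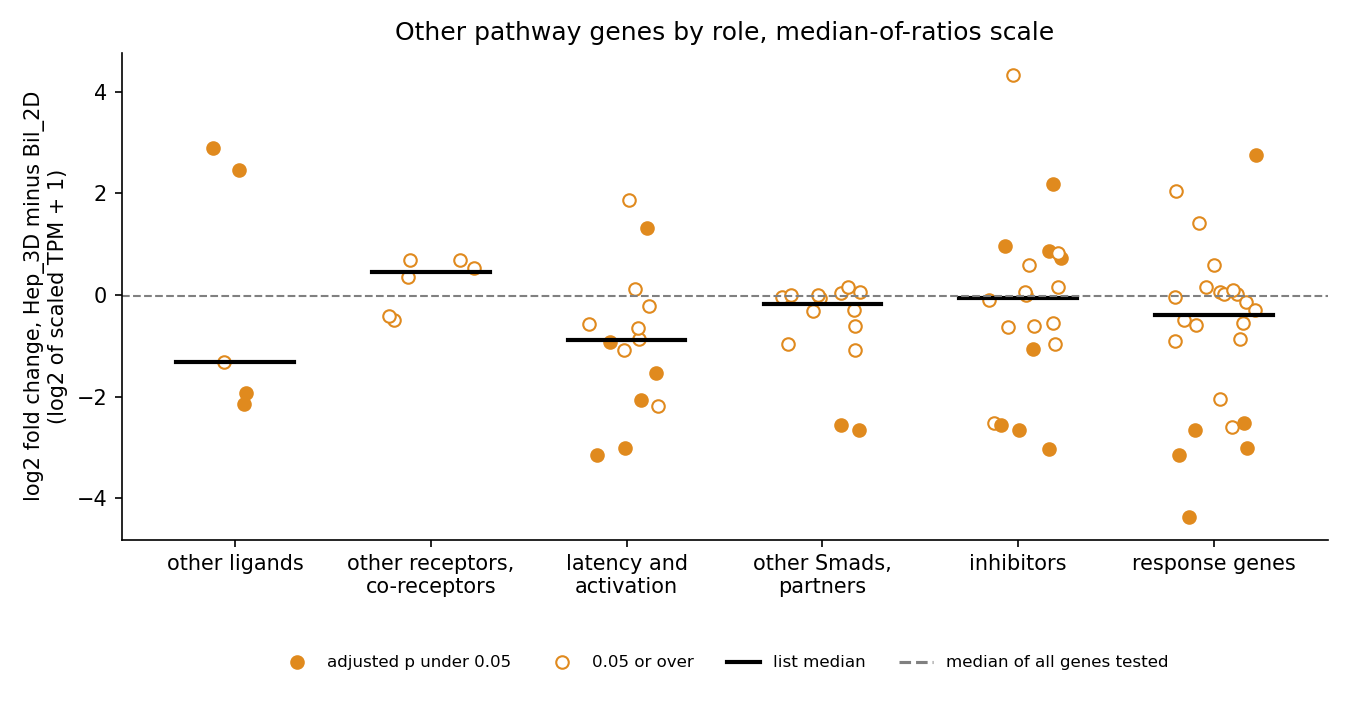
Log2 fold change, Hep_3D minus Bil_2D, on the size-factor scale for the tested genes of the 6 pathway lists, 1 point per gene; filled points had a limma adjusted p under 0.05, black bars are list medians and the dashed line is the median of all genes tested. The list medians lie between -1.31 for other ligands and 0.45 for other receptors; some genes stand in more than 1 list.

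The genes most like the 2 members with the largest fold changes were sought over the 4 libraries, as the smallest distance between log2(TPM + 1) values centred on their means, among 12327 other genes tested. For Tgfb3 they were Csf2 (distance 0.18), which encodes the cytokine GM-CSF, the scaffold protein gene Akap12 (0.18) and the cyclin gene Ccnd1 (0.26). Csf2 had 0.0957 and 0.342 TPM in Hep_3D, against 19.4 and 26.7 TPM in Bil_2D. For Tgfb2 they were the microRNA gene entry Mir680-2 (0.30), Smad7 (0.31) and the caveolar protein gene Cavin2 (0.33). Csf2 and Mir680-2 passed the filter through the Bil_2D libraries alone. With so few libraries and so many genes, close neighbours are easily found, so the distances describe these values alone.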

How the data were processed

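Per the labels' protocols, total RNA of 4 cultures was extracted with a Qiagen kit and Novogene made the libraries. A table of TPM was deposited by the authors for 24493 gene symbols. Salmon, DESeq2 and mm10 stand in the submitters' processing notes without versions or roles, and the annotation is not given in the sources used here. Each column sums to 1000000, so depth is unknown and no count model was fitted.

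Groups and clones were taken from the sample titles. The 12336 genes that reached 1 TPM in 2 or more of 4 libraries were fitted on log2(TPM + 1) with limma 3.58.1 in R 4.3.3 (lmFit, eBayes with a trend, 2 residual degrees of freedom, a prior of 2.29), and p-values were adjusted over all of them by the Benjamini-Hochberg method. The fit was tested on simulated data in which every gene had the same spread. Size factors (median-of-ratios) came from genes that reached 1 TPM in all 4 libraries, and they set the groups apart by 0.82 log2 units. Same-numbered libraries share a clone, per the labels; over the genes tested, how far clone 15C7 lay from the group mean correlated at 0.41 between the groups. Alternatives were other pseudocounts, filters, scalings and variance models, clone as a replicate block, and leaving out each library; a lone library is then assumed to vary as the other group does. Leave-outs on the size-factor scale were chosen after seeing the data. All 10 members are named, and in each list up to 4 called genes with the largest absolute fold change. The members and lists were chosen with earlier results of these data known. Sequences and coordinates are RefSeq's for GRCm38.p6, the build that mm10 denotes.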

Additional observations from a re-analysis of the deposited data

Results flagged for a closer look

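Inhbb moved in opposite directions in the 2 clones: the log2 difference, Hep_3D minus Bil_2D, was 1.2 in clone 15C7 and -0.85 in clone 19H5. Each clone gave 1 library per group, so the difference between clones was not tested. Groups of 2 libraries are too small for an outlier test.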

How the results depend on the processing

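With all 4 libraries on the TPM scale, limma called 5 of the members, 41 pathway genes and 7241 genes in all. With all libraries in the fit, 3 members were called with no filter (12 pathway genes, 3526 in all), 3 with quantile normalization (24 and 3100) and 3 with the 50 most abundant genes left out (28 and 3350). Median-of-ratios scaling called 4 members, 1 of them higher, with 21 pathway genes and 2642 in all, and with the replicate block on that scale 3194 in all. The replicate block on the TPM scale, which pairs libraries by clone, called 6 members, adding Inhba (adjusted p = 0.019 in limma), 51 pathway genes and 8150 in all. Leaving out single libraries on the TPM scale gave 3 to 5 members, 0 to 1 of them higher, 19 to 35 pathway genes and 2627 to 4537 in all. On the size-factor scale, without Hep_3D replicates 1 and 2 and Bil_2D replicates 1 and 2 in that order, the members called were 2, 2, 1 and 0, the pathway genes 7, 6, 2 and 0, and all genes 818, 611, 340 and 188. The 2 called without either Hep_3D library were Tgfb3 and Smad3, and the 1 without Bil_2D replicate 1 was Tgfb3.

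Directions turned for Tgfbr1, at 0.60 with median-of-ratios scaling (the same with the block), 0.49 with quantile normalization, 0.34 with the 50 genes left out, and 0.52, 0.68, 0.57 and 0.63 on the size-factor scale in the leave-out order above. Acvr1b turned to 0.70, 0.61, 0.45, 0.46, 0.93, 1.11 and 0.28 under the same settings in that order, and Acvr2a to 0.69, 0.60, 0.49, 0.82, 0.57, 0.71 and 0.67. Leaving out libraries on the TPM scale took Acvr1b from -0.54 to 0.38 and Acvr2a from -0.11 to 0.087. Inhba stood at 0.014 on the size-factor scale without Bil_2D replicate 1. Inhbb ran from -0.80 to 1.15 and Fst from -0.28 to 2.56 as libraries were left out on the TPM scale, and Inhbb was -0.28 on the size-factor scale without Hep_3D replicate 1. Smad2 and Smad4 stood at 0.0093 and 0.12 on that scale without Hep_3D replicate 2. The cause of these changes was not tested. Of 586 refitted values of named genes, 359 kept their direction and side of the threshold. Without counts, no limit from depth can be given.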
